A study of Rattus norvegicus with 2 samples.

Results

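Circular RNAs (circRNAs) of 4 host genes, CORO1C, CAMSAP1, SPECC1 and SOGA2, were examined in 2 sequencing libraries from a rat bone cancer pain model. The genes were grouped as actin or microtubule binders. All table entries that gave one of these names alone as the host gene were taken, which made 34 of 17260 back-splice junctions: 11 of CORO1C, 8 of CAMSAP1, 8 of SPECC1 and 7 of SOGA2. These hosts were chosen by measured abundance, since each has a junction among those with the most reads in both libraries, so the high levels below are a description and not a finding. A back-splice junction is where the downstream end of an RNA segment is joined to its upstream end to close the circle.

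In the bone cancer pain (BCP) group, living cells of Walker256, a breast carcinoma line of the rat grown as ascites in SD rats, were put into the marrow cavity of the tibia. The control group had the same surgery with Walker256 cells that had been boiled for 20 minutes. Each group had 3 animals, killed 21 days after surgery, and each gave 1 library; the labels state neither the age of the animals nor any pooling. Both groups therefore share the implanted line and the surgery, and RNA from both was treated with RNase R, which digests linear RNA.

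With 1 library per group there was no replicate check and no test between conditions, and the 95% intervals cover counting error of sequenced reads only. The BCP library held 151685 junction reads and the control library 159941. The labels name both ascites cancer cells and spinal cord cells as the source. Of 30 markers of neurons, oligodendrocytes and astrocytes, 3 (SYT1, MBP and MYRF) had a circRNA, with 7 BCP and 2 control reads in all. None of the 6 astrocyte markers had one. No share over all genes was set beside this count, and a gene can be expressed without a listed circRNA. The count therefore does not decide between these sources. Gene symbols, identifiers of circBase, a circRNA catalogue, and positions in the table are in human style. In the rat gene table used for names (assembly GRCr8), 3 of the 4 symbols matched directly and SOGA2 matched as a synonym of Mtcl1, and 1 of the 4 genes, Coro1c, lies on a chromosome of the same number as in the deposited table. CAMSAP1, SPECC1 and SOGA2 lie on rat chromosomes of other numbers, so the positions cannot be read as rat positions. They are printed as deposited, on a build that the table does not name and without strand. "Lower end" therefore means the smaller coordinate, and no exon or intron annotation was applied.

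Actin filaments and microtubules are the polymers that shape cells and carry their internal traffic. CORO1C is a coronin, a family that binds actin filaments and acts on their branching and turnover. SPECC1, also called cytospin-B, is a coiled-coil protein with a calponin homology domain and is related to SPECC1L, which links actin to microtubules. CAMSAP1 binds the minus ends of microtubules, and SOGA2, now named MTCL1, crosslinks microtubules. CircRNA junction reads measure neither the linear mRNA nor the protein of these genes.

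In each of the 4 genes, 1 junction carried most of the reads, and the 4 leading junctions did not share a direction between the libraries. CORO1C was lower in the BCP library, SPECC1 was higher, and the intervals of CAMSAP1 and SOGA2 held a ratio of 1, although that of SOGA2 excluded it under another scaling given below. All 4 differences were smaller than 2-fold. Together the 34 junctions took 3688 BCP reads, or 2.43% of the library (exact binomial interval 2.35 to 2.51), and 3996 control reads, or 2.50% (2.42 to 2.58).

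The leading CORO1C junction (hsa_circ_0000437, chromosome 12, 109046048 to 109048186) spans 2139 bp. It had 765 reads in the BCP library and 1178 in the control library, which are 5043 RPM in BCP and 7365 RPM in control (RPM is junction reads scaled to a library total of 1000000). The ratio of read shares, BCP over control, was 0.68 (exact conditional binomial interval 0.62 to 0.75), or 1.46-fold lower (1.33 to 1.60). By reads this junction had rank 9 in the BCP library and rank 4 in the control library.

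The leading SPECC1 junction (hsa_circ_0000745, chromosome 17, 20107646 to 20109225) spans 1580 bp. It had 885 BCP and 686 control reads, or 5834 RPM in BCP and 4289 RPM in control, a ratio of 1.36 (1.23 to 1.51). Its rank was 6 in the BCP library and 11 in the control library. SPECC1 and CORO1C thus lay on opposite sides of 1 with intervals that do not overlap.

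The leading junctions of the microtubule binders were closer to equal. CAMSAP1 (hsa_circ_0001900, chromosome 9, 138773479 to 138774924, 1446 bp) had 919 BCP and 921 control reads, or 6059 RPM in the BCP and 5758 in the control library, a ratio of 1.05 (0.96 to 1.15). SOGA2 (hsa_circ_0000825, chromosome 18, 8718422 to 8720494, 2073 bp) had 917 BCP and 1009 control reads, or 6045 RPM in BCP and 6309 RPM in control, a ratio of 0.96 (0.88 to 1.05). These intervals allow a ratio of up to 1.15 for CAMSAP1 and down to 0.88 for SOGA2, and differences within them were not detectable at this depth. With median of ratios scaling, which sets the median circRNA listed in both libraries to a ratio of 1, SOGA2 stood at 0.91 (0.83 to 0.995), an interval that excluded 1. All 4 leading spans are shorter than the median of 5765 bp over all circRNAs and the median of 3169.5 bp over the 100 circRNAs with the most reads.

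**Figure D1:**
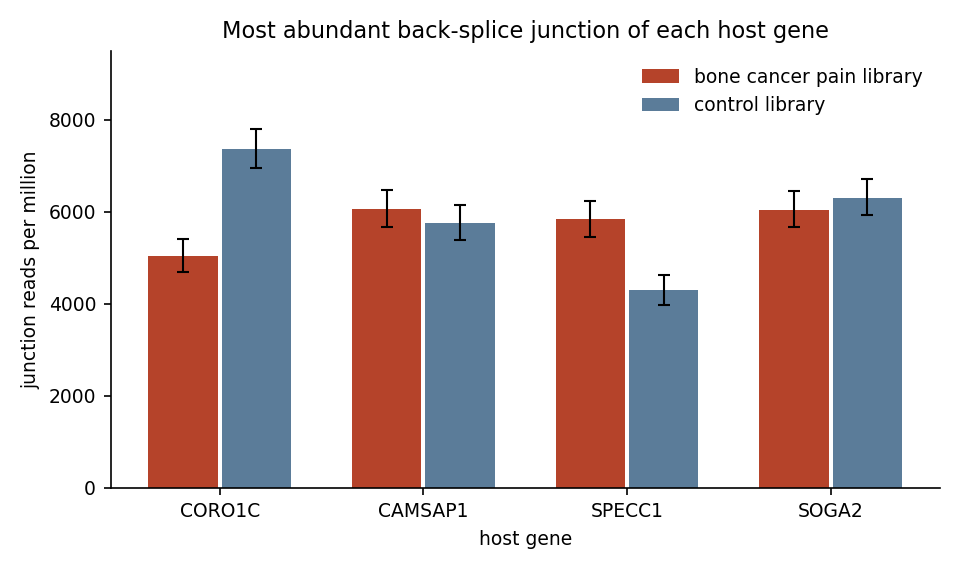
RPM (vertical axis, junction reads per library total of 1000000) of the most abundant junction of each host gene in the BCP and control libraries, 1 library each; bars are the values and lines the exact Poisson 95% intervals, which cover counting error only. CORO1C stands at 5043 in BCP against 7365 in control and SPECC1 at 5834 in BCP against 4289 in control, while the intervals of the pairs of CAMSAP1 and of SOGA2 overlap.

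The order of the 4 junctions within a library does not depend on scaling between libraries. In the BCP library CAMSAP1 (919 reads), SOGA2 (917) and SPECC1 (885) were followed by CORO1C (765). The first 3 of these could not be told apart, since the CAMSAP1 to SPECC1 read ratio was 1.04 (0.95 to 1.14), whereas SPECC1 exceeded CORO1C by 1.16-fold (1.05 to 1.28). In the control library CORO1C (1178) came first, then SOGA2 (1009), CAMSAP1 (921) and SPECC1 (686). There CORO1C exceeded SOGA2 by 1.17-fold (1.07 to 1.27) and SPECC1 by 1.72-fold (1.56 to 1.89). The interval of SOGA2 over CAMSAP1 only just excluded 1 (1.10-fold, 1.001 to 1.20). CORO1C was thus the least abundant of the 4 in the BCP library and the most abundant in the control library.

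Ratios of this size were within the range of other abundant circRNAs. Among the 100 circRNAs with the most reads over both libraries, the ratios ran from 0.35 to 3.99, with 6 at least 2-fold higher and 3 at least 2-fold lower. In that ranking SPECC1 was 18th from the highest ratio and CORO1C 18th from the lowest, while CAMSAP1 was 41st and SOGA2 55th from the highest.

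The next question was how the reads of each gene divide between its leading junction and the others. CORO1C had 95.9% of its BCP reads (94.2 to 97.1) and 95% of its control reads (93.6 to 96.1) on the leading junction. For SPECC1 the shares were 95.9% in the BCP (94.4 to 97.1) and 95.8% in the control library (94.1 to 97.2). CAMSAP1 had smaller shares in both libraries, 89.3% of BCP (87.3 to 91.1) and 89.9% of control reads (87.9 to 91.7). In these 3 genes the intervals of the libraries overlapped widely, so a difference in the division between junctions was not detectable. SOGA2 had 97.8% (96.6 to 98.6) of its BCP and 99.3% (98.6 to 99.7) of its control reads on the leading junction, with intervals that meet at 98.6%.

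The SOGA2 shares depended on which entries were counted. A junction from 8714137 to 8720494 on chromosome 18, which ends at the same upper position as the leading one and has no circBase identifier, had 239 BCP and 210 control reads (ratio 1.20, 0.99 to 1.45). Its entry lists names of small RNAs (Y_RNA, snoU13, SNORD112 and U3) beside SOGA2, which put it outside the 34 junctions. With it, the leading junction held 77.9% (75.4 to 80.3) of BCP and 82.3% (80.0 to 84.4) of control reads. This junction had more reads than all the other SOGA2 junctions outside the leading one together.

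High shares on 1 junction were also found in other abundant hosts. Of the 48 host genes with 500 or more reads and 5 or more junctions, SOGA2 had the highest share over both libraries (98.6%), and SPECC1 (95.9%), CORO1C (95.3%) and CAMSAP1 (89.6%) had ranks 4, 6 and 10. The other 44 hosts ranged from 21.3% to 98.2% with a median of 58.8%, and GCN1L1 (98.2%), ASPH (97.6%) and CREBBP (95.7%) stood between SOGA2 and CORO1C. When small RNA names beside a host were ignored for every gene, 57 hosts qualified and SOGA2, at 80.1%, was 20th, while SPECC1 (95.9%), CORO1C (94.8%) and CAMSAP1 (89.3%) again had ranks 4, 6 and 10. Since the hosts were picked for an abundant junction, these ranks are a description.

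**Figure D2:**
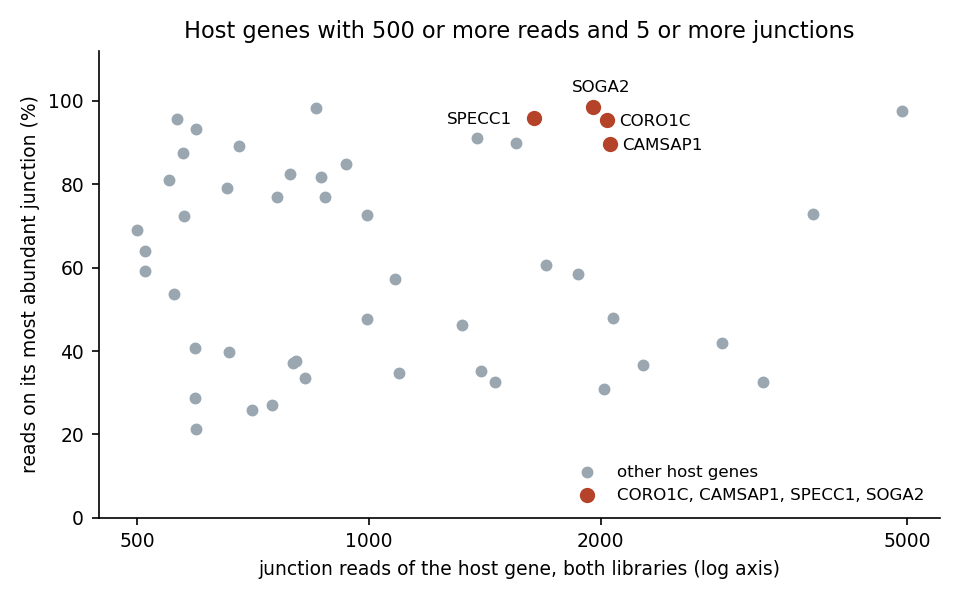
Share of a host gene's reads that lay on its most abundant junction (vertical axis, %) against its junction reads over both libraries (horizontal log axis), for the 48 host genes with 500 or more reads and 5 or more junctions; each point is 1 gene. The 4 named genes lie between 89.6% and 98.6%, and the other 44 spread from 21.3% to 98.2%.

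Outside the leading junctions, 30 minor junctions held 202 reads in the BCP library and 202 in the control library (ratio 1.05, 0.86 to 1.29). They had 2 to 106 reads over both libraries, with a median of 6. Of the 30, 14 were listed in both libraries, and over all circRNAs in the same range of reads 40.6% were. Listing followed the number of reads, since 4 of 19 minor junctions with 2 to 9 reads were in both libraries (all circRNAs of that class, 18.0%), as were 6 of 7 with 10 to 19 reads (88.0%). Since the lowest listed value was 2 reads, a junction absent from a library may still have had 1 read there, and no ratio is given for it.

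By size, 15 of the 34 junctions had 10 or more reads and could be called at a ratio of 2 or 0.5, and the 19 below that minimum were not. Of the 15, 2 were higher in the BCP library, where the share over all 5415 circRNAs with 10 or more reads was 17.3%, and 2 were lower, where it was 17.0%. That made 26.7% called in either direction, against 34.3% over all. The 15 include the 4 leading junctions, which were picked for many reads in both libraries, so no comparison is drawn from these shares. All 4 called junctions were among the 11 minor ones with 10 or more reads, and they belonged to CORO1C and SPECC1. Among the 4 called, 1 higher junction also had an interval that excluded 1. The 1 lower junction counted as excluding 1 had no reads listed in the BCP library, so no ratio is given for it.

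CORO1C had the most minor junctions, 10, with 33 reads in the BCP and 62 in the control library (ratio 0.56, 0.36 to 0.87). Their summed ratio was on the same side of 1 as that of the leading junction, but the interval held 1 with circBase identifiers only (0.83, 0.51 to 1.34) and with junctions listed in both libraries only (0.79, 0.45 to 1.39). The largest ran from 109052514 to 109055934 (hsa_circ_0007007) and had 11 BCP and 20 control reads (0.58, 0.25 to 1.27). A junction that starts at the leading junction's lower end and reaches 109055934 (hsa_circ_0006852) had 10 BCP and 3 control reads (3.51, 0.90 to 19.9) and was called higher by size.

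Both CORO1C junctions called lower lie outside the leading one. One spans 190 bp, from 109041109 to 109041298, has no circBase identifier and had 11 control reads with none listed in the BCP library. The other, from 109072048 to 109095099 (hsa_circ_0008081), had 3 BCP and 9 control reads (0.35, 0.061 to 1.41). Of the remaining 6 minor junctions, each with 2 to 8 reads, 2 were listed only in the BCP library and 4 only in the control library. A pair of these, with 6 control reads and 3 control reads, end exactly where the leading junction does and start 30 bp below or 13 bp above it, and neither carries a circBase identifier. The 3 minor junctions that share the leading lower end had 14 BCP and 11 control reads in all, and the 4 that meet at 109095099 had 12 BCP and 11 control reads; the junction that joins these 2 ends (hsa_circ_0002678, 4 BCP reads and none listed in control) counts in both sums.

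SPECC1 had 7 minor junctions with 38 BCP and 30 control reads (1.34, 0.81 to 2.23). This ratio was 2.50 (1.36 to 4.81) with circBase identifiers only and 2.11 (1.12 to 4.12) with junctions listed in both libraries only, so whether its interval held 1 depended on which entries were counted. The minor SPECC1 junction with the most reads starts with the leading junction and reaches 20135718 (hsa_circ_0042426), with 12 BCP and 7 control reads (1.81, 0.66 to 5.42). A separate group of 4 junctions lies above that position, made from 2 lower ends, 20149239 and 20156818, and 2 upper ends, 20163607 and 20209395.

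The 2 lower ends of this SPECC1 group had ratios on opposite sides of 1. From 20149239, the junction to 20163607 (hsa_circ_0003545) had 14 BCP and 3 control reads (4.92, 1.37 to 26.7) and was called higher, and the one to 20209395 (hsa_circ_0042435) had 6 BCP reads and none listed in the control library. From 20156818, the junction to 20163607 (hsa_circ_0042437) had 6 reads in each library (1.05, 0.28 to 3.94), and the one to 20209395, without an identifier, had none listed in the BCP and 9 reads in the control library. Summed by lower end, 20149239 had 20 BCP and 3 control reads (7.03, 2.08 to 36.9) and 20156818 had 6 BCP and 15 control reads (0.42, 0.13 to 1.15). These intervals do not overlap, but the ends were set side by side after their values had been seen, and the reads are few. Each sum also counts an unlisted junction as 0 reads, which the intervals do not cover. The remaining 2 SPECC1 junctions had 3 and 2 control reads and none listed in the BCP library; one of them ends 9 bp beyond 20135718.

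CAMSAP1 had the minor junctions with the most reads, 7 with 110 BCP and 103 control reads (1.13, 0.85 to 1.49), and each carries a circBase identifier. The junction from 138758302 to the leading upper end (hsa_circ_0006814) had 53 reads in each library (1.05, 0.71 to 1.57). From a lower end shared by 5 junctions, 138741983, the one to 138758382 (hsa_circ_0089489) had 24 BCP and 19 control reads (1.33, 0.70 to 2.57). A short one of 325 bp to 138742307 (hsa_circ_0089486) had 21 BCP and 17 control reads (1.30, 0.65 to 2.63).

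The other CAMSAP1 junctions were rarer. The junction from 138741983 to the leading upper end (hsa_circ_0004338) had 8 BCP and 5 control reads (1.69, 0.49 to 6.55). The remaining 3 had 2 to 6 reads over both libraries, and 2 of them were listed in the control library only. Over the 5 junctions of the shared lower end there were 57 BCP and 48 control reads (1.25, 0.84 to 1.88). Every ratio given here for a CAMSAP1 junction had an interval that holds 1.

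The minor SOGA2 junctions lay far from the leading one. None of the 6 overlapped the leading one or shared an end with it; the nearest starts 57336 bp above its upper end. This holds for entries under SOGA2 alone, since the junction with 239 BCP and 210 control reads described above contains the leading one and shares its upper end. The 6 had 21 BCP and 7 control reads (3.16, 1.30 to 8.81), and 3 of the 6 were listed only in the BCP library and none only in the control library. The one with the most reads, from 8777831 to 8813231, had 7 BCP and 2 control reads (3.69, 0.70 to 36.4), and none reached 10 reads. The summed ratio was 1.05 (0.14 to 7.87) with circBase identifiers only and 1.81 (0.66 to 5.42) with junctions listed in both libraries only, and both intervals held 1. With the junction to 8720494 added to the 6, the sums were 260 BCP and 217 control reads and the ratio was 1.26 (1.05 to 1.52).

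**Figure D3:**
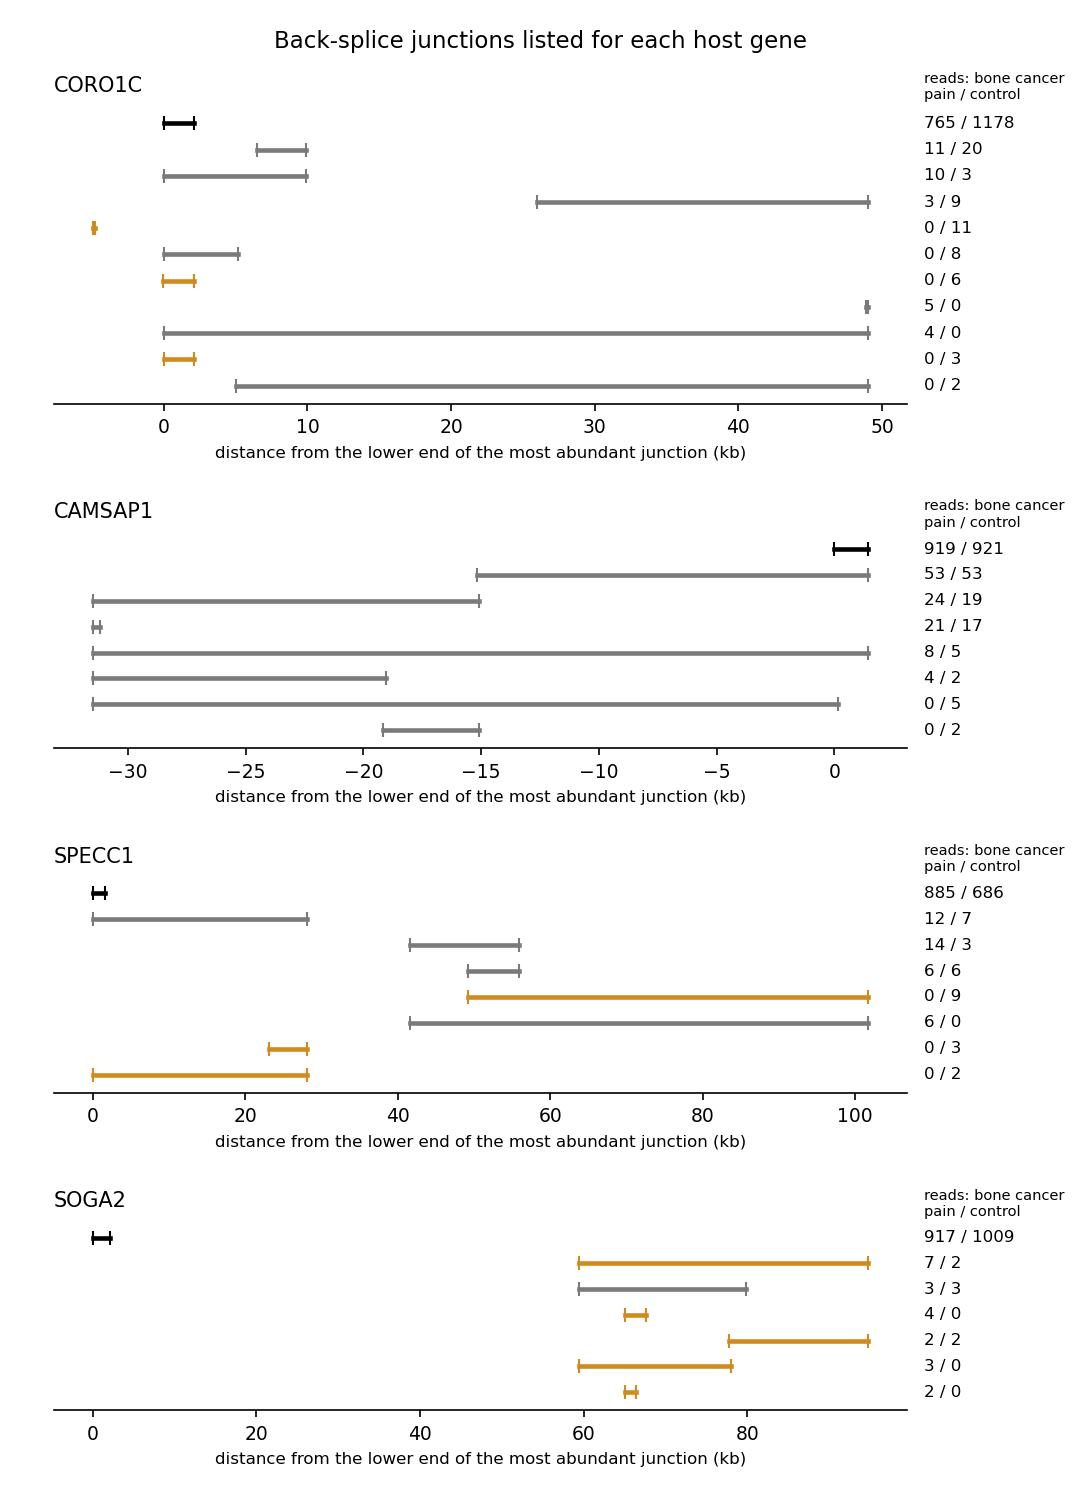
Positions of the 34 junctions relative to the lower end of the most abundant junction of the same gene (horizontal axis, kb, separate scale per gene), with BCP and control reads at the right. Black lines are the most abundant junctions, grey lines other junctions with a circBase identifier and orange lines those without; the 6 minor SOGA2 junctions lie away from the leading one, and 5 CAMSAP1 junctions start at the same lower end.

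Over the 4 genes, 9 of the 30 minor junctions (30.0%) shared an end with the leading junction of their host, 5 at the lower and 4 at the upper end. The share over 608 minor junctions of the 44 other abundant hosts was 29.9%, so the members were at the background. Both shares count only entries under 1 host name. That leaves out entries beside small RNA names, such as the SOGA2 junction from 8714137, which shares the leading upper end. For 2 of these 9, the CORO1C pair that share the upper end, the lower end lay within 50 bp of the leading one without matching it. In all, 10 minor junctions overlapped the leading one and 20 lay apart from it. A circBase identifier was given for 19 minor junctions, 12 of them listed in both libraries, and 11 had none, 2 of them listed in both. The median reads were 12 with an identifier and 4 without.

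**Figure D4:**
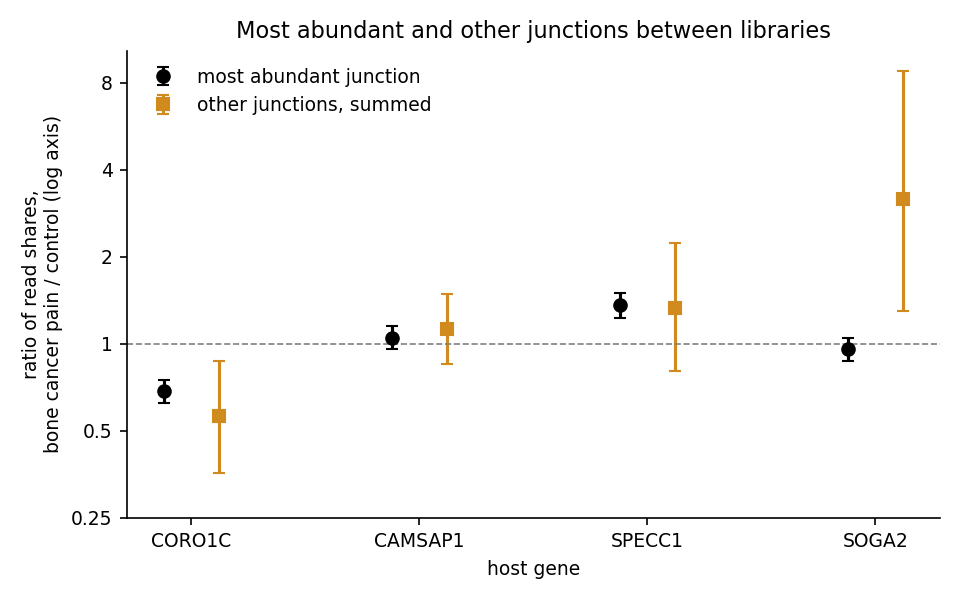
Ratio of read shares, BCP over control (vertical log axis), of the most abundant junction and of the other junctions summed, for each host gene; points are ratios from 1 library each and lines exact 95% intervals for counting error. Leading and other junctions lie on the same side of 1 for CORO1C (0.68 and 0.56) and SPECC1 (1.36 and 1.34). The interval of the other SPECC1 junctions holds 1. SOGA2 stands at 0.96 for its leading junction and 3.16 for the others, which had 21 BCP and 7 control reads. With the junction from 8714137 to 8720494 added, which is not drawn, the ratio of the others is 1.26.

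Summed over all their junctions, none of the 4 host genes passed a ratio of 2 or 0.5. Of 3034 host genes with 10 or more reads, 13.3% passed upward and 14.2% downward. Those include hosts with far fewer reads, while the 4 sums rest mostly on junctions picked for many reads in both libraries. The shares are therefore not like for like. Of the 100 circRNAs with the most reads, 6 were at least 2-fold higher and 3 at least 2-fold lower. CORO1C had 798 BCP and 1240 control reads (0.68, 0.62 to 0.74), and SPECC1 923 BCP and 716 control reads (1.36, 1.23 to 1.5). CAMSAP1 had 1029 BCP and 1024 control reads (1.06, 0.97 to 1.16), and SOGA2 938 BCP and 1016 control reads (0.97, 0.89 to 1.06). The median log2 ratio of all host genes was -0.03.

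The 61 host genes with 500 or more reads were searched for those nearest in summed log2 ratio, a likeness that rests on 2 libraries. Nearest to CORO1C (log2 ratio -0.56) were DLG1 (-0.55) and PTTG1IP (-0.58), with 549 and 589 BCP reads against 850 and 926 control reads. For SPECC1 (0.44) they were EXOC6B and MAN1A2 (both 0.44), for CAMSAP1 (0.08) SLTM and AXL (both 0.09), and for SOGA2 (-0.04) CDK14 (-0.06) and UBXN7 (-0.02).

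Relatives of the 4 genes had fewer reads than the 4 genes themselves, or none. Since the 4 genes were chosen for an abundant junction, this difference follows largely from the choice and is a description only. No junction was listed for 6 other coronins, CORO1A, CORO1B, CORO2A, CORO2B, CORO6 and CORO7. CAMSAP2, another minus-end binder, had 15 reads in each library on 5 junctions (1.05, 0.48 to 2.31), and none was listed for CAMSAP3. SPECC1L had 76 BCP and 117 control reads on 5 junctions (0.68, 0.51 to 0.92), all entered beside the overlapping SPECC1L-ADORA2A; this ratio lay below 1, where that of SPECC1 lay above 1. SOGA1 had 62 BCP and 45 control reads (1.45, 0.97 to 2.18), and none was listed for SOGA3.

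Among other actin binders and regulators, 30 of 51 genes had a circRNA entered under their name alone and 22 had 10 or more reads. By size 2 of the 22 were higher, where the share over all host genes was 13.3%, 5 were lower, where it was 14.2%, and 15 were between; their median log2 ratio was -0.37, beside -0.03 over all host genes. The formin DIAPH3 had the most reads, 382 in the BCP and 445 in the control library (0.91, 0.79 to 1.04), and the formin DIAPH1 had 64 BCP and 68 control reads (0.99, 0.69 to 1.42). VASP, which promotes filament elongation, had 47 BCP and 82 control reads (0.60, 0.41 to 0.88).

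The actin crosslinker ACTN1 had 9 BCP and 38 control reads (0.25, 0.11 to 0.53). Cortactin, CTTN, which stabilises branched filaments, had 9 BCP and 35 control reads (0.27, 0.11 to 0.58). Both were among the 5 lower genes. The others, named after their values were seen, were TLN1 (2 BCP and 13 control reads), which ties integrins to actin, and DIAPH2 and LIMK1, with 14 and 11 control reads and none listed in the BCP library. The higher ones were the capping protein subunit CAPZA2 (14 BCP and 7 control reads; 2.11, 0.80 to 6.17) and, also named after its value was seen, the Arp2/3 subunit ARPC1A (12 BCP and 6 control reads). The phosphatase SSH2, which activates cofilin, had 62 BCP and 47 control reads (1.39, 0.94 to 2.08).

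Among other microtubule binders and regulators, 34 of 51 had a circRNA entered under their name alone and 29 had 10 or more reads. By size 4 of the 29 were higher, beside 13.3% over all host genes, 1 was lower, beside 14.2%, and 24 were between, with a median log2 ratio of 0.04. CLASP1, which stabilises plus ends, had the most reads, 142 in the BCP and 281 in the control library (0.53, 0.43 to 0.65). The kinase MARK4 had 117 BCP and 180 control reads (0.69, 0.54 to 0.87), and the plus-end protein CLIP1 148 BCP and 97 control reads (1.61, 1.24 to 2.10). Abundant members of this list thus lay on both sides of 1.

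The higher microtubule genes were TACC1 (28 BCP and 12 control reads; 2.46, 1.21 to 5.31), GTSE1 (21 BCP and 9 control reads; 2.46, 1.08 to 6.10) and, named after their values were seen, CKAP5 (41 BCP and 18 control reads) and MARK2 (10 BCP and 5 control reads). CKAP5 is a microtubule polymerase. KANSL1, a subunit of a histone acetyltransferase complex that also acts on spindle microtubules, was the lower one, with 6 BCP and 29 control reads (0.22, 0.074 to 0.53).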

How the data were processed

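One table of circRNA junctions was analysed. Per the labels' protocols, RNA was depleted of ribosomal RNA, treated with RNase R (16 units, 15 minutes, 37 °C) and made into strand-marked libraries. Per the submitters' processing notes, the tools include CASAVA 1.8 and BWA and the build is rn6, without their roles. The human-style identifiers and positions in the table conflict with that rat build. The sources used here do not say how circRNAs were called. The deposited values, headed TPM in the file headers, were treated as RPM (junction reads scaled to a library total of 1000000): above the placeholder of 0.001, 100% were whole multiples of 1 step per library to within 0.001 reads, so they carry no length term. Values were divided by the step to obtain reads, and the placeholder was taken as 0 reads. Of all entries, 1 on chromosome Y was left out after totals were taken.

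Ratios are shares of library reads, bone cancer pain over control, with exact conditional binomial (Clopper-Pearson) 95% intervals; shares have exact binomial and levels exact Poisson intervals. PCR reads without molecular identifiers are not independent molecules, so all intervals cover counting error only. A call by size, which is not a test, needed 10 or more reads over both libraries and a ratio of 2 or 0.5 after adding 0.5 reads to each. Host sums used entries with 1 host name. The leading junction was the one with the most reads over both libraries. The rule for named items covered leading junctions, minor junctions with 20 or more reads and the 2 highest and 2 lowest with 10 to 19, the 3 most abundant and the 2 highest and 2 lowest list members with 20 or more reads, and the 2 hosts nearest in ratio. The genes and lists were chosen with earlier results of these data known, and the cell type markers were added after the table had been seen. The code for calls was tried on simulated counts. The changes set there were larger than the limit of 2 and lay in circRNAs with more reads than the called junctions had. That trial therefore does not cover the calls made here. Other scalings, added reads, thresholds, minimums, thinning of the control and other sets of entries were tried. The software was Python 3.11.15 with scipy 1.17.1, numpy 2.4.6, pandas 2.3.3 and, for figures, matplotlib 3.10.9.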

Additional observations from a re-analysis of the deposited data

How the results depend on the processing

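Across 118 alternative values, 95 stayed within the counting interval (counts: within 1.5 times) of the value reported and 23 moved. The ratios of the leading junctions and of the summed junctions were all among the 95. For the leading junctions the alternatives were other scalings, added reads and thinning, which change such abundant junctions little, so this outcome says little. A value among the 95 could still differ in whether its own interval held 1. Median of ratios scaling shifted all log2 ratios by -0.08, which put the CAMSAP1 leading junction just under 1 (0.998) and the SOGA2 leading junction at 0.91 (0.83 to 0.995), and TMM by -0.01. The SOGA2 minor ratio was 1.27 with all entries naming several genes added and 1.26 with the junction from 8714137 to 8720494 alone added; the leading SOGA2 junction then held 77.8% and 77.9% of bone cancer pain and 82.3% of control reads in both cases. With circBase identifiers only, the SOGA2 minor ratio was 1.05. For minor ratios, the alternatives that change the entries counted were chosen after seeing the data. With such entries added, the SPECC1 minor ratio was 1.76 (1.10 to 2.86), an interval that no longer held 1, and with circBase identifiers only it was 2.50. With junctions listed in both libraries only, leading shares were 98.7% for SOGA2 in the bone cancer pain library, and 97.4% for CORO1C and 97.7% for SPECC1 in the control library. With circBase identifiers only they were 99.7% for SOGA2 in the bone cancer pain library, and 96.6% for CORO1C and 97.7% for SPECC1 in the control library. The counts of 2 higher and 2 lower junctions became 4 higher at a ratio of 1.5 (3 lower), 1 and 1 where the interval had also to exclude 1, 5 and 6 with a minimum of 5 reads, 0 and 0 with a minimum of 20, and 9 and 11 with no minimum. The junctions eligible numbered 15, and 24, 8 and 34 at minimums of 5, 20 and none. No paired analysis was possible because each group has 1 library, and no replicate could be left out. Depth limits the minor junctions most: with 12 reads over both libraries, the interval of a SPECC1 junction ran from 0.28 to 3.94.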

Other observations

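Besides the SOGA2 junction described in the results, 7 entries named one of the 4 genes together with other names, and they had 26 bone cancer pain (BCP) and 7 control reads in all. For SPECC1, a junction from 20107646 to 20109249 on chromosome 17, which ends 24 bp beyond the leading junction, had 9 BCP reads, and one from 20091271 to the leading upper end had 3, with none listed in the control library for either. For CAMSAP1, a junction from the leading lower end to 138780119 on chromosome 9 had 8 BCP reads and none listed in the control library. For CORO1C, a junction from the leading lower end to 109051475 on chromosome 12 had 4 BCP reads and none listed in the control library, while those from 109094900 to 109112730 and to 109111538 had 5 and 2 control reads and none listed in the BCP library. The last, a SOGA2 junction from 8714137 to 8741132, had 2 BCP reads.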
